A study of Homo sapiens with 22 samples.

Results

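The 33 genes described here serve DNA replication (13 genes) or mitosis (20 genes), and they were read in RNA bound by the RNA-binding protein PSF and in total RNA of 3 prostate cancer cell lines. They were chosen by symbol, each represented by the RefSeq transcript with the highest mean read count. They are 33 of the 20239 gene symbols kept in the files, and all 33 had intron rows. The replication group holds the helicase subunits MCM2, MCM3, MCM4, MCM5, MCM6 and MCM7, the licensing factors CDC6 and CDT1, the polymerase clamp PCNA, the nucleotide enzymes TYMS and RRM2, the transcription factor E2F1 and the S-phase cyclin gene CCNE2. The mitosis group holds the cyclin and kinase genes CCNA2, CCNB1, CCNB2 and CDK1, the anaphase genes CDC20 and UBE2C, the mitotic kinases AURKA, AURKB, PLK1, BUB1, BUB1B and TTK, the spindle and centromere genes TPX2, KIF11, CENPE, CENPF and BIRC5, the chromosome genes TOP2A and MKI67, and the transcription factor FOXM1.

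As background, cells license replication origins by loading the MCM helicase in G1, with CDC6 and CDT1 as loaders, and E2F transcription factors drive these genes at the entry to S phase. Most mitosis genes are transcribed later, in G2, through the MuvB complex, B-MYB and FOXM1, which act at promoters with CCAAT boxes and a cell cycle homology region. In androgen-dependent prostate cancer cells, androgen drives proliferation at low doses and restrains it at high ones.

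PSF, also called SFPQ, is a nuclear protein of splicing and paraspeckles. RNA was taken from 22Rv1 cells (a line from a relapsed xenograft with an androgen receptor), from cells labelled LTAD and from LNCaP cells (an androgen-responsive line from a lymph node metastasis), after dihydrotestosterone (DHT, 10 nM, 24 h) or vehicle, which was ethanol. Before treatment every group spent 3 days in 2.5% serum stripped with charcoal/dextran. The growth medium of LTAD cells held 10% stripped serum, and the labels do not spell out the name LTAD. RNA recovered with a PSF antibody (PSF-RIP) and input RNA were sequenced for every line and treatment, which gave 12 libraries of 1 each, and 4 lists of PSF-CLIP peaks were available for LNCaP. No immunoglobulin control was analysed here, each line stands for itself alone, and no label says that libraries came from separate cultures. A p-value here therefore reflects spread between single libraries, which may be partly technical, and not between known cultures. In the tests of line or DHT below, that spread includes how far the DHT response differs between lines.

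PSF-RIP libraries held 4641602 to 10439461 mapped reads and input libraries 1073228 to 3014049, so input values of weakly expressed members rest on few reads. SFPQ itself was at 295 (DHT) and 283 (vehicle) CPM (exonic counts scaled to library size, with TMM factors) in 22Rv1 PSF-RIP, 297 and 286 in LTAD PSF-RIP, and 375 and 388 in LNCaP PSF-RIP, against 161 and 153 in 22Rv1 input, 135 and 143 in LTAD input, and 184 and 191 in LNCaP input, the DHT library first each time. All 7 luminal prostate markers examined had reads in every library. Of 3 leukocyte, 3 stromal or endothelial and 2 basal markers that had a row, all but COL1A1 (3 to 323 reads), DCN (6 to 23 reads, in 22Rv1 alone) and KRT14 (0 to 6 reads) had 2 reads or fewer in every library. The summed stromal and endothelial markers were at 6.70 to 9.55 CPM in 22Rv1, 15.5 to 38.0 CPM in LTAD and 8.89 to 34.5 CPM in LNCaP, and their part in the line differences below was not tested. In whole cultures, fewer cycling cells and less RNA per cell cannot be told apart.

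Since the 2 groups moved by different amounts in the comparisons below, promoters are shown for 2 members of each. They are RefSeq promoters on GRCh38.p14, 250 bases before to 50 after the start, and 24 of the 33 members matched an entry. MCM4, MCM5, CCNE2, AURKA, BIRC5, UBE2C, TPX2, FOXM1 and TTK had no entry. Capitals mark, on either strand, CCAAT boxes (letters CCAAT) and the core of the cell cycle homology region (letters TTTGAA) in the mitosis promoters, and E2F sites (letters TTTCCCGC or TTTGGCGC) in the replication promoters. The mitosis promoters are CCNB2 at chr15:59104896-59105195 (plus strand), a B-type cyclin, and CDC20 at chr1:43358731-43359030 (plus strand), an activator of the anaphase-promoting complex.
CCNB2: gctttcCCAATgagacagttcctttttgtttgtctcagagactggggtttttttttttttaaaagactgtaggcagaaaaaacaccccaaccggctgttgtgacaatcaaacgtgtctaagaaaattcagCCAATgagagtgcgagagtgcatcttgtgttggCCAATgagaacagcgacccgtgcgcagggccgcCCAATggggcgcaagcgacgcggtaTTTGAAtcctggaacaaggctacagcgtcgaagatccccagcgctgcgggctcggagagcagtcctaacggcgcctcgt
CDC20: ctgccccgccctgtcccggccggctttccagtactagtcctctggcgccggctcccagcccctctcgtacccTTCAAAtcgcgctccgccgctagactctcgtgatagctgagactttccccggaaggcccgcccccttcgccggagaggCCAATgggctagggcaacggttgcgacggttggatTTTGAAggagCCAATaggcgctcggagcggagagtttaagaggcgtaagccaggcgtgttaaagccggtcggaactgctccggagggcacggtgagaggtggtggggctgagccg
The replication promoters are MCM6 at chr2:135876394-135876693 (minus strand) and E2F1 at chr20:33686336-33686635 (minus strand).
MCM6: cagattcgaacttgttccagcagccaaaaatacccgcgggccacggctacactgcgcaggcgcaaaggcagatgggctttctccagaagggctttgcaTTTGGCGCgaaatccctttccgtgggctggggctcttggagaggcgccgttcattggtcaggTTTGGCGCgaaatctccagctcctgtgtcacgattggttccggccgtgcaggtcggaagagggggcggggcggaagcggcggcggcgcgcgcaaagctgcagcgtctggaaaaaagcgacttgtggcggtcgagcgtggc
E2F1: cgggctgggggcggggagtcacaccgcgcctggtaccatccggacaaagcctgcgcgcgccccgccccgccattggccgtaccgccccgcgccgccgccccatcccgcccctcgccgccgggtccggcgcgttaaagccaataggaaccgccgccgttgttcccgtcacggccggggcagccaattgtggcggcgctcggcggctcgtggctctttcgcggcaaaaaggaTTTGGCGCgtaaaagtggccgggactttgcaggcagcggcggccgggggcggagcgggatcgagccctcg

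CCNB2 carried 4 CCAAT boxes and 1 TTTGAA, which started 29 bases before the start. CDC20 carried 2 CCAAT boxes and 2 TTTGAA, 1 of them on the minus strand. MCM6 carried 2 E2F sites and E2F1 carried 1, and no capital run in these 4 promoters overlapped another. On either strand MCM6 also held 2 CCAAT boxes and E2F1 held 3, which are left in lower case. Over genes with an entry, TTTGAA was found in 9 of 14 mitosis genes (64.3%), in 0 of 10 replication genes, and in 18.2% of all 27305 genes of the table. An E2F site was found in 0 of 14 mitosis genes, in 8 of 10 replication genes (80.0%; MCM2 and RRM2 had none) and in 2.75% of all genes. CCAAT was found in 12 of 14 mitosis genes (85.7%), in 7 of 10 replication genes (70.0%) and in 39.7% of all genes. A match of letters is a description and not a site of binding.

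**Figure D1:**
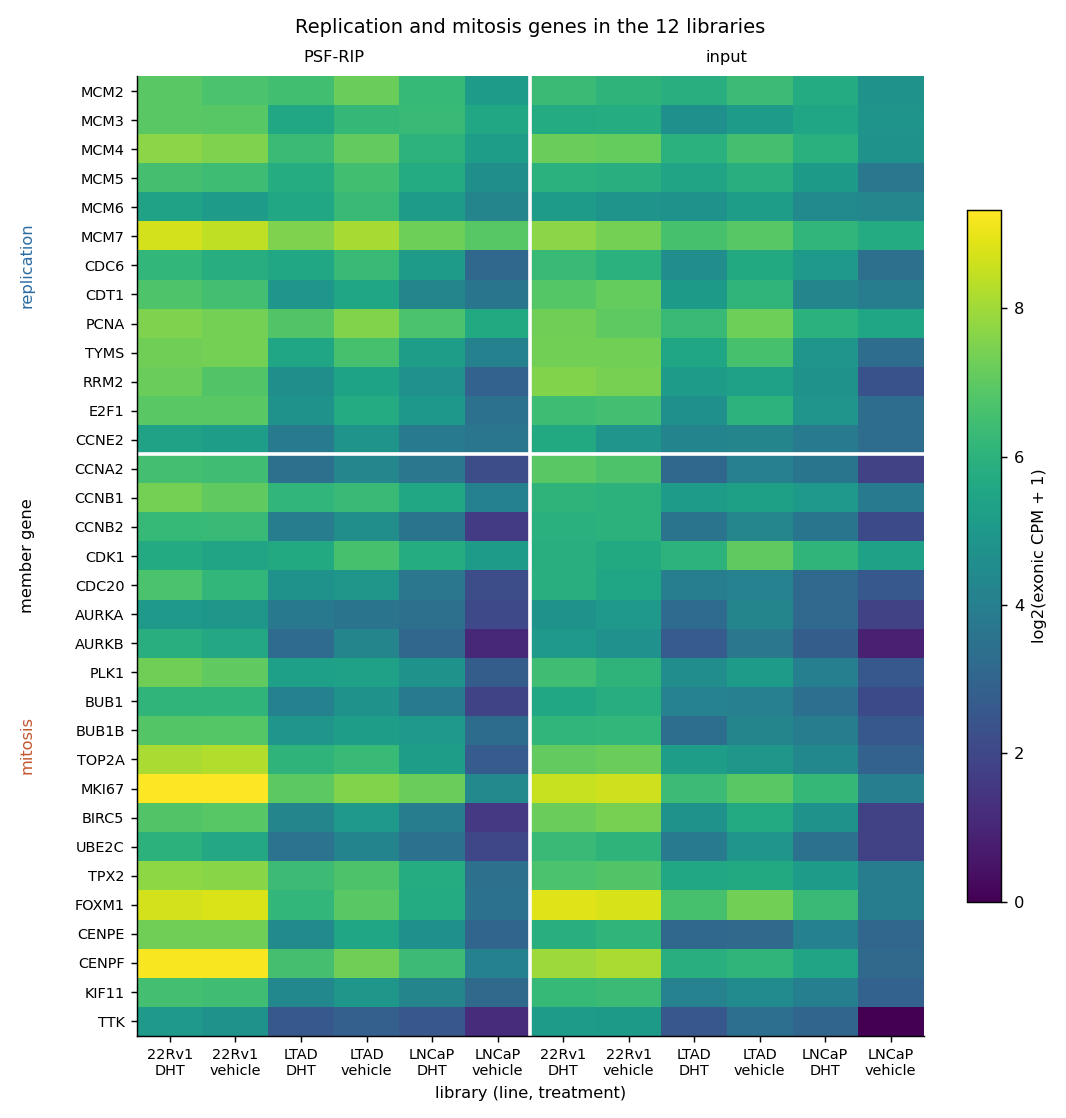
Levels of the 33 members (rows, replication above the white line, mitosis below) in the 12 libraries (columns), as log2 of exonic CPM plus 1. In both fractions the 22Rv1 columns are the brightest for most members and the LNCaP vehicle column is the darkest; MKI67 and CENPF in 22Rv1 PSF-RIP reach 637 and 604 CPM.

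In sum, replication and mitosis RNA was most abundant in 22Rv1, intermediate in LTAD and lowest in LNCaP kept without androgen. The 20 mitosis genes summed to 3496 (DHT) and 3406 (vehicle) CPM in 22Rv1 PSF-RIP, 785 (DHT) and 1153 (vehicle) CPM in LTAD PSF-RIP, and 667 (DHT) and 165 (vehicle) CPM in LNCaP PSF-RIP. In input the mitosis sums were 2329 (DHT) and 2346 (vehicle) CPM in 22Rv1, 581 (DHT) and 866 (vehicle) CPM in LTAD, and 504 (DHT) and 156 (vehicle) CPM in LNCaP. The sums of the 13 replication genes spread less. In input they were 1412 (DHT) and 1283 (vehicle) CPM in 22Rv1, 563 (DHT) and 904 (vehicle) CPM in LTAD, and 488 (DHT) and 264 (vehicle) CPM in LNCaP. Under vehicle, 19 of 20 mitosis genes ran 22Rv1, LTAD, LNCaP from high to low in input and 19 of 20 did in PSF-RIP, with CDK1, highest in LTAD, as the exception both times. Of the replication genes, 9 of 13 ran so in input and 8 of 13 in PSF-RIP, while MCM2, MCM5, MCM6 and PCNA were highest in LTAD vehicle in both fractions and CDC6 was in PSF-RIP. Of all genes, 17.8% had this order in input and 20.5% in PSF-RIP.

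In the test of lines, where DHT and vehicle of 1 line count as its 2 samples, 31 of 33 members were higher in 22Rv1 than in LNCaP in PSF-RIP and 29 of 33 in input. Of all genes tested, 33.3% were higher and 27.8% lower in PSF-RIP, and 26.6% higher and 23.4% lower in input. The mitosis group had a median log2 difference of 3.28 in PSF-RIP and 3.004 in input, and the replication group had 1.58 and 1.74, against 0.053 in PSF-RIP and -0.0028 in input over all genes. MCM6 (log2 difference 0.53) and CDK1 (0.068) were not called in PSF-RIP, and MCM2, MCM3, MCM6 and CDK1 (-0.0088 to 0.90) were not called in input. Without the LNCaP vehicle input library the input count was 18. The gap was narrower in the DHT libraries: the mitosis median was 2.54 with DHT and 4.33 with vehicle in PSF-RIP, and 2.33 with DHT and 3.94 with vehicle in input (3.80 with TTK at the floor given below). The replication median was 1.41 with DHT and 1.79 with vehicle in PSF-RIP, and 1.33 with DHT and 2.14 with vehicle in input, each 1 library against 1 with no test. All adjusted p-values are from edgeR's quasi-likelihood test with Benjamini-Hochberg adjustment over all genes tested, and all 33 members passed its expression filter.

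Against LTAD, 22Rv1 had 27 members higher and 1 lower in PSF-RIP, where 36.9% of all genes were higher and 27.1% lower. In input 20 members were higher and 0 lower, where the shares of all genes were 26.3% and 22.2%. By DESeq2 the PSF-RIP counts were 16 higher and 0 lower. The input count was 5 without the 22Rv1 vehicle library, 8 without the 22Rv1 DHT library and 2 without the LTAD DHT library. The mitosis genes made up 19 of the 27 in PSF-RIP and 15 of the 20 in input. Here the gap was wider in the DHT libraries, with a mitosis median of 2.27 with DHT and 1.67 with vehicle in PSF-RIP, and 2.14 with DHT and 1.69 with vehicle in input. The replication median was 1.34 with DHT and 0.34 with vehicle in PSF-RIP, and 1.26 with DHT and 0.54 with vehicle in input, again 1 library against 1.

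Among the helicase subunits, MCM7 had the most reads for its length. MCM7 in PSF-RIP had 408 (DHT) and 341 (vehicle) CPM in 22Rv1, 180.0 (DHT) and 273 (vehicle) CPM in LTAD, and 154 (DHT) and 119.6 (vehicle) CPM in LNCaP. Input RNA held 205 (DHT) and 164 (vehicle) CPM in 22Rv1, 97.5 (DHT) and 117 (vehicle) CPM in LTAD, and 69.5 (DHT) and 52.6 (vehicle) CPM in LNCaP. Every 22Rv1 library lay above every library of the other lines in the same fraction. MCM7 was higher in 22Rv1 than in LNCaP by 1.59 (SE 0.25, adjusted p = 0.000287) on the log2 scale in input. The PSF-RIP levels of MCM6 were 40.1 (DHT) and 34.8 (vehicle) CPM in 22Rv1, 47.4 (DHT) and 77.0 (vehicle) CPM in LTAD, and 34.4 (DHT) and 17.9 (vehicle) CPM in LNCaP. In the input libraries it had 33.2 (DHT) and 27.4 (vehicle) CPM in 22Rv1, 26.7 (DHT) and 35.8 (vehicle) CPM in LTAD, and 21.0 (DHT) and 18.9 (vehicle) CPM in LNCaP. MCM6, another subunit of the same ring, had its highest value in LTAD vehicle in both fractions, and its lowest in LNCaP vehicle.

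MCM6 was the single member called lower in 22Rv1 than in LTAD, at -0.74 (SE 0.28, adjusted p = 0.0334) in PSF-RIP, but the call was lost without the 22Rv1 vehicle, 22Rv1 DHT or LTAD vehicle library in turn (without LTAD vehicle the difference was -0.071, adjusted p = 0.841). It was not called there by DESeq2 (adjusted p = 0.113). MCM6 was higher in LTAD than in LNCaP by 1.27 (SE 0.29, adjusted p = 0.0107) in PSF-RIP, a call lost without either vehicle library. In PSF-RIP, MCM3 had 121 (DHT) and 117 (vehicle) CPM in 22Rv1, 47.4 (DHT) and 73.5 (vehicle) CPM in LTAD, and 76.0 (DHT) and 47.5 (vehicle) CPM in LNCaP. The inputs held 52.6 (DHT) and 53.6 (vehicle) CPM in 22Rv1, 24.4 (DHT) and 33.4 (vehicle) CPM in LTAD, and 43.6 (DHT) and 27.1 (vehicle) CPM in LNCaP. The LNCaP DHT library of MCM3 exceeded both LTAD libraries in both fractions. MCM2, MCM4 and MCM5 lay between 24.1 and 207 CPM in PSF-RIP and between 12.3 and 147 CPM in input, with LNCaP vehicle lowest in each case.

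CDT1, which loads the helicase and is degraded once replication starts, was highest in 22Rv1. CDT1 in PSF-RIP had 108 (DHT) and 91.1 (vehicle) CPM in 22Rv1, 28.4 (DHT) and 43.9 (vehicle) CPM in LTAD, and 18.3 (DHT) and 11.3 (vehicle) CPM in LNCaP. Its input levels were 114 (DHT) and 138 (vehicle) CPM in 22Rv1, 33.04 (DHT) and 66.9 (vehicle) CPM in LTAD, and 18.6 (DHT) and 13.97 (vehicle) CPM in LNCaP. The 3 lines did not overlap in either fraction, and LNCaP was lowest. CDT1 was higher in 22Rv1 than in LNCaP by 2.76 (SE 0.29, adjusted p = 5.08e-06) in PSF-RIP and 2.94 (SE 0.35, adjusted p = 3.6e-05) in input. Against LTAD, 22Rv1 was higher by 1.46 (SE 0.25, adjusted p = 0.000268) in PSF-RIP and 1.40 (SE 0.31, adjusted p = 0.0027) in input. The input call against LTAD was lost without the LTAD DHT library (adjusted p = 0.104). LTAD was called above LNCaP in both fractions. With 1 library left out in turn that difference was 0.78 to 1.79 in PSF-RIP and 1.08 to 2.04 in input. The PSF-RIP call was lost without either vehicle library, and the input call without any 1 of the 4 libraries. CDC6, the other loader, had 7.68 to 78.2 CPM over the 12 libraries, with LNCaP vehicle lowest in both fractions.

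RRM2, the regulated subunit of ribonucleotide reductase, showed the widest range of the replication genes. The PSF-RIP levels of RRM2 were 145 (DHT) and 109 (vehicle) CPM in 22Rv1, 23.6 (DHT) and 41.1 (vehicle) CPM in LTAD, and 25.3 (DHT) and 6.61 (vehicle) CPM in LNCaP. In input it had 188 (DHT) and 169 (vehicle) CPM in 22Rv1, 34.6 (DHT) and 39.4 (vehicle) CPM in LTAD, and 26.7 (DHT) and 4.11 (vehicle) CPM in LNCaP. Both 22Rv1 libraries lay above 100 CPM in each fraction and LNCaP vehicle lay below 10 CPM. In input RRM2 was higher in 22Rv1 by 3.56 (SE 0.57, adjusted p = 0.00031) against LNCaP and by 2.31 (SE 0.51, adjusted p = 0.00289) against LTAD. The call against LTAD was lost without the LTAD DHT library (adjusted p = 0.091) and without the 22Rv1 vehicle library. TYMS, which makes thymidylate, ran from 9.04 to 164 CPM, PCNA from 45.2 to 187 CPM, E2F1 from 9.04 to 121 CPM and CCNE2 from 9.04 to 49.8 CPM over the 12 libraries. The lowest library of PCNA, TYMS, E2F1 and CCNE2 was LNCaP vehicle input.

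Among the mitotic cyclins, CCNA2, the cyclin of S and G2 phase, set 22Rv1 apart. In PSF-RIP, CCNA2 had 90.9 (DHT) and 86.6 (vehicle) CPM in 22Rv1, 9.76 (DHT) and 19.1 (vehicle) CPM in LTAD, and 12.04 (DHT) and 3.62 (vehicle) CPM in LNCaP. Input RNA held 121 (DHT) and 104 (vehicle) CPM in 22Rv1, 7.87 (DHT) and 15.5 (vehicle) CPM in LTAD, and 11.3 (DHT) and 2.47 (vehicle) CPM in LNCaP. All 4 values in 22Rv1 were above 80 CPM and all 8 values elsewhere were below 20 CPM. CCNA2 was higher in 22Rv1 than in LNCaP by 3.54 (SE 0.44, adjusted p = 2.12e-05) in PSF-RIP and 4.03 (SE 0.57, adjusted p = 0.000128) in input. It was higher in 22Rv1 than in LTAD by 2.64 (SE 0.38, adjusted p = 6.73e-05) in PSF-RIP and 3.36 (SE 0.55, adjusted p = 0.00035) in input.

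CDK1, the kinase partner of the cyclins, did not follow them. CDK1 in PSF-RIP had 50.7 (DHT) and 42.5 (vehicle) CPM in 22Rv1, 50.1 (DHT) and 97.0 (vehicle) CPM in LTAD, and 54.2 (DHT) and 34.5 (vehicle) CPM in LNCaP. In the input libraries it had 57.4 (DHT) and 49.9 (vehicle) CPM in 22Rv1, 63.7 (DHT) and 131 (vehicle) CPM in LTAD, and 67.9 (DHT) and 39.5 (vehicle) CPM in LNCaP. LTAD vehicle was highest in both fractions, and the 22Rv1 values lay among those of LNCaP. Its log2 difference between 22Rv1 and LNCaP was 0.068 in PSF-RIP and -0.0088 in input, and no line comparison called it. The PSF-RIP levels of CCNB1 were 163 (DHT) and 132 (vehicle) CPM in 22Rv1, 69.8 (DHT) and 78.5 (vehicle) CPM in LTAD, and 45.6 (DHT) and 16.2 (vehicle) CPM in LNCaP. The inputs held 66.4 (DHT) and 62.1 (vehicle) CPM in 22Rv1, 33.8 (DHT) and 38.2 (vehicle) CPM in LTAD, and 30.7 (DHT) and 13.2 (vehicle) CPM in LNCaP. CCNB1, the cyclin B that activates CDK1 at mitotic entry, was ordered 22Rv1, LTAD, LNCaP in every treatment and fraction.

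CDC20, which directs the anaphase-promoting complex to its early targets, gave the smallest adjusted p among members in PSF-RIP of 22Rv1 against LNCaP. In PSF-RIP, CDC20 had 102 (DHT) and 70.4 (vehicle) CPM in 22Rv1, 26.3 (DHT) and 29.5 (vehicle) CPM in LTAD, and 12.04 (DHT) and 3.62 (vehicle) CPM in LNCaP. Its input levels were 58.1 (DHT) and 43.2 (vehicle) CPM in 22Rv1, 14.9 (DHT) and 16.7 (vehicle) CPM in LTAD, and 8.08 (DHT) and 4.93 (vehicle) CPM in LNCaP. The lines did not overlap in either fraction. CDC20 was higher in 22Rv1 than in LNCaP by 3.50 (SE 0.31, adjusted p = 1.55e-06) in PSF-RIP and 2.95 (SE 0.45, adjusted p = 0.000227) in input. It was higher in LTAD than in LNCaP by 1.92 (SE 0.33, adjusted p = 0.0018), and in 22Rv1 than in LTAD by 1.58 (SE 0.26, adjusted p = 0.000186), both in PSF-RIP. UBE2C, the ubiquitin-conjugating enzyme of the same complex, had 2.47 to 76.1 CPM over the libraries.

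Of the mitotic kinases, PLK1 drives mitotic entry and spindle assembly. PLK1 in PSF-RIP had 155 (DHT) and 132 (vehicle) CPM in 22Rv1, 37.1 (DHT) and 39.8 (vehicle) CPM in LTAD, and 26.6 (DHT) and 5.76 (vehicle) CPM in LNCaP. In input it had 86.5 (DHT) and 65.8 (vehicle) CPM in 22Rv1, 22.8 (DHT) and 33.4 (vehicle) CPM in LTAD, and 15.4 (DHT) and 4.93 (vehicle) CPM in LNCaP. PLK1 was higher in 22Rv1 than in LNCaP by 3.26 (SE 0.39, adjusted p = 1.74e-05) in PSF-RIP, and the ranges of the 3 lines did not overlap. The checkpoint kinase gene BUB1B had a different order of the lower lines. The PSF-RIP levels of BUB1B were 113 (DHT) and 117 (vehicle) CPM in 22Rv1, 27.9 (DHT) and 35.8 (vehicle) CPM in LTAD, and 31.3 (DHT) and 8.74 (vehicle) CPM in LNCaP. Input RNA held 68.5 (DHT) and 70.6 (vehicle) CPM in 22Rv1, 9.44 (DHT) and 17.9 (vehicle) CPM in LTAD, and 14.6 (DHT) and 4.93 (vehicle) CPM in LNCaP. LTAD and LNCaP overlapped in both fractions, and BUB1B was higher in 22Rv1 than in LTAD by 2.43 (SE 0.56, adjusted p = 0.00378) in input, a call lost without the LTAD DHT library (adjusted p = 0.115).

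TTK, the kinase that starts the spindle checkpoint, rested on few reads outside 22Rv1. In PSF-RIP, TTK had 30.7 (DHT) and 26.9 (vehicle) CPM in 22Rv1, 4.94 (DHT) and 6.31 (vehicle) CPM in LTAD, and 4.76 (DHT) and 1.28 (vehicle) CPM in LNCaP. In the input libraries it had 33.9 (DHT) and 32.9 (vehicle) CPM in 22Rv1, 4.72 (DHT) and 9.55 (vehicle) CPM in LTAD, and 7.27 (DHT) and 0 (vehicle) CPM in LNCaP. LNCaP vehicle input had 0 reads of TTK, which allows up to 3 reads or 2.47 CPM, so that under vehicle TTK was at least 13.3-fold higher in 22Rv1 input and at least 3.87-fold higher in LTAD input than in LNCaP input, with the reads of 22Rv1 (54) and LTAD (8) taken as exact. With their counting error too, the lower 95% limits of these ratios were 10.5 and 2.48. TTK was higher in 22Rv1 than in LTAD by 2.36 (SE 0.40, adjusted p = 0.00024) in PSF-RIP. AURKA, AURKB and BUB1 ranged from 0.822 to 67.7 CPM over the libraries, each lowest in LNCaP vehicle.

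The spindle motor KIF11, which pushes the poles apart, separated 22Rv1 from the other lines. KIF11 in PSF-RIP had 92.4 (DHT) and 87.0 (vehicle) CPM in 22Rv1, 19.6 (DHT) and 29.2 (vehicle) CPM in LTAD, and 17.8 (DHT) and 8.31 (vehicle) CPM in LNCaP. The inputs held 74.0 (DHT) and 80.4 (vehicle) CPM in 22Rv1, 16.5 (DHT) and 21.5 (vehicle) CPM in LTAD, and 15.4 (DHT) and 6.58 (vehicle) CPM in LNCaP. Every 22Rv1 value was above 70 CPM and every other value below 30 CPM. KIF11 was higher in 22Rv1 than in LNCaP by 2.80 (SE 0.31, adjusted p = 9.2e-06) in PSF-RIP and 2.81 (SE 0.42, adjusted p = 0.000179) in input. It was higher in 22Rv1 than in LTAD by 1.88 (SE 0.28, adjusted p = 8.36e-05) in PSF-RIP and 2.06 (SE 0.40, adjusted p = 0.00111) in input.

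CENPE, the kinetochore motor, was as low in LTAD input as in LNCaP vehicle input. The PSF-RIP levels of CENPE were 155 (DHT) and 155 (vehicle) CPM in 22Rv1, 20.2 (DHT) and 43.4 (vehicle) CPM in LTAD, and 24.3 (DHT) and 7.25 (vehicle) CPM in LNCaP. Its input levels were 57.4 (DHT) and 68.2 (vehicle) CPM in 22Rv1, 7.87 (DHT) and 8.36 (vehicle) CPM in LTAD, and 16.2 (DHT) and 7.40 (vehicle) CPM in LNCaP. Under DHT the LNCaP input value was above the LTAD one, and all 22Rv1 values were above 50 CPM. CENPE was higher in 22Rv1 than in LTAD by 2.29 (SE 0.39, adjusted p = 0.00023) in PSF-RIP and 2.96 (SE 0.68, adjusted p = 0.00354) in input, and the input call was lost without the 22Rv1 vehicle or LTAD DHT library. TPX2, which seeds spindle microtubules and activates AURKA, ran as follows. In PSF-RIP, TPX2 had 212 (DHT) and 199.6 (vehicle) CPM in 22Rv1, 82.1 (DHT) and 105 (vehicle) CPM in LTAD, and 53.7 (DHT) and 9.81 (vehicle) CPM in LNCaP. In input it had 100.3 (DHT) and 109 (vehicle) CPM in 22Rv1, 45.6 (DHT) and 49.0 (vehicle) CPM in LTAD, and 34.8 (DHT) and 13.97 (vehicle) CPM in LNCaP. The LNCaP vehicle library was lowest in both fractions.

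TOP2A, the topoisomerase that untangles sister chromosomes, had the widest gap to LNCaP in PSF-RIP. TOP2A in PSF-RIP had 283 (DHT) and 302 (vehicle) CPM in 22Rv1, 65.0 (DHT) and 77.5 (vehicle) CPM in LTAD, and 35.9 (DHT) and 5.54 (vehicle) CPM in LNCaP. Input RNA held 135 (DHT) and 147 (vehicle) CPM in 22Rv1, 35.4 (DHT) and 29.9 (vehicle) CPM in LTAD, and 19.4 (DHT) and 6.58 (vehicle) CPM in LNCaP. TOP2A was higher in 22Rv1 than in LNCaP by 3.95 (SE 0.48, adjusted p = 1.81e-05) and higher in LTAD than in LNCaP by 1.91 (SE 0.47, adjusted p = 0.0142), both in PSF-RIP. MKI67, the perichromosomal protein Ki-67, was higher in all 22Rv1 libraries than in any other library of the same fraction. The PSF-RIP levels of MKI67 were 637 (DHT) and 632 (vehicle) CPM in 22Rv1, 126 (DHT) and 186 (vehicle) CPM in LTAD, and 148 (DHT) and 19.8 (vehicle) CPM in LNCaP. In the input libraries it had 372 (DHT) and 398 (vehicle) CPM in 22Rv1, 83.4 (DHT) and 121 (vehicle) CPM in LTAD, and 73.5 (DHT) and 14.8 (vehicle) CPM in LNCaP. In 22Rv1 PSF-RIP, CENPF had 601 (DHT) and 604 (vehicle) CPM and FOXM1 had 408 (DHT) and 437 (vehicle) CPM.

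Per kilobase of exon, the scale on which genes can be compared, the order within a library was different. In 22Rv1 vehicle input the highest levels were 117 CPM per kb for FOXM1, 102 for TYMS and 94.8 for PCNA, and the lowest were 7.24 for MCM6 and 7.92 for CENPE. In LTAD vehicle input PCNA had 111 CPM per kb, CDK1 had 68.7 and TYMS had 60.3. In LNCaP vehicle input PCNA led with 33.4 CPM per kb, before CDK1 with 20.6 and MCM7 with 17.1. MKI67, with its long transcript of 12495 bases, had 31.9 CPM per kb in 22Rv1 vehicle input, below UBE2C (76.6), whose transcript has 850 bases.

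The difference between LTAD and LNCaP was wide in the vehicle libraries and narrow in the DHT libraries. Under vehicle, 32 of 33 members were at least 2-fold higher in LTAD than in LNCaP in PSF-RIP, where 6.34% of all genes were, and 29 of 33 in input, where 9.49% were. Under DHT, 1 of 33 was in PSF-RIP (4.06% of all genes) and 0 of 33 in input (7.53%). The mitosis median in PSF-RIP was a log2 difference of 2.76 under vehicle and 0.22 under DHT, and the replication median was 1.92 and 0.23. The member past 2-fold under DHT was CDC20, at 26.3 CPM in LTAD and 12.04 CPM in LNCaP. Each of these is 1 library against 1, with no test.

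By the test that takes a line's vehicle and DHT libraries as its 2 samples, 14 of 33 members were higher in LTAD than in LNCaP in PSF-RIP. In input 1 of 33 (CDT1) was. Of all genes, 7.92% were higher and 12% lower in PSF-RIP, and 2.93% higher and 5.28% lower in input. Besides CDC20, MCM6 and TOP2A above, CCNB1 was higher in LTAD by 1.36 (SE 0.30, adjusted p = 0.00891), CDT1 by 1.30 (SE 0.29, adjusted p = 0.00895) and TPX2 by 1.72 (SE 0.46, adjusted p = 0.0206), all in PSF-RIP. The other 8 were PLK1, MCM2, MCM7, MCM4, CDC6, TYMS, CCNB2 and BUB1. CDT1 in input was higher by 1.55 (SE 0.41, adjusted p = 0.0373), a call that did not hold without any 1 of the 4 libraries compared. The PSF-RIP count was 1 without the LNCaP vehicle library, 1 without the LTAD vehicle library, 29 without the LNCaP DHT library and 28 without the LTAD DHT library, and 7 by DESeq2. CDC20 kept its call without each of the 4 libraries in turn.

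With DHT, the members' levels were above vehicle in LNCaP, mostly below vehicle in LTAD and within 2-fold of it in 22Rv1. In LNCaP all 33 members had more CPM with DHT than with vehicle in both fractions, as did 27.6% of all genes. In PSF-RIP 26 of 33 were at least 2-fold higher with DHT, where 2.64% of all genes were, and in input 24 of 33, where 5.28% were; 23 were in both. The mitosis genes led, with 19 of 20 past 2-fold in PSF-RIP (median log2 ratio 1.94) and 18 of 20 in input (1.53). Of the replication genes, 7 of 13 were past 2-fold in PSF-RIP (1.05) and 6 of 13 in input (0.98). The median of all genes was -0.027 in PSF-RIP and -0.0089 in input.

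MKI67 in LNCaP PSF-RIP was at 148 CPM with DHT and 19.8 CPM with vehicle, a ratio of 7.46 (95% interval 5.99 to 9.39). BIRC5, the survivin subunit of the Aurora B complex, was at 14.3 CPM with DHT and 1.92 CPM with vehicle, a ratio of 7.45 (95% interval 3.66 to 17.1). These intervals are exact and cover counting error only. TOP2A had a ratio of 6.47 (95% interval 4.24 to 10.2), TPX2 of 5.47 (95% interval 3.96 to 7.70) and CENPF of 5.11 (95% interval 3.97 to 6.66). Of the replication genes, CDC6 had 4.38 (95% interval 3.01 to 6.51), RRM2 had 3.83 (95% interval 2.54 to 5.93) and E2F1 had 3.003 (95% interval 2.13 to 4.30). The smallest ratios belonged to CCNE2, 1.20 (95% interval 0.808 to 1.78), and MCM7, 1.28 (95% interval 1.14 to 1.44). In all, the interval lay above 1 for 20 of 20 mitosis and 12 of 13 replication genes, against 13.8% of all genes.

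The input of LNCaP gave like values on fewer reads. MKI67 had a DHT over vehicle ratio of 4.97 (95% interval 2.98 to 8.76), FOXM1 of 5.44 (95% interval 3.22 to 9.73) and CENPF of 5.11 (95% interval 2.57 to 11.3). RRM2 had 6.49 (95% interval 2.52 to 21.3) and BIRC5 10.8 (95% interval 3.39 to 55.1). The interval lay above 1 for 14 of 20 mitosis and 8 of 13 replication genes, against 7.06% of all genes. TTK had 7.27 CPM with DHT and 0 reads with vehicle, so it was at least 2.95-fold higher with DHT when its 9 DHT reads are taken as exact and the vehicle library at 3. The lower 95% limit with their counting error was 1.94, and the mitosis median was 1.53 also with TTK at the 3-read floor.

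**Figure D2:**
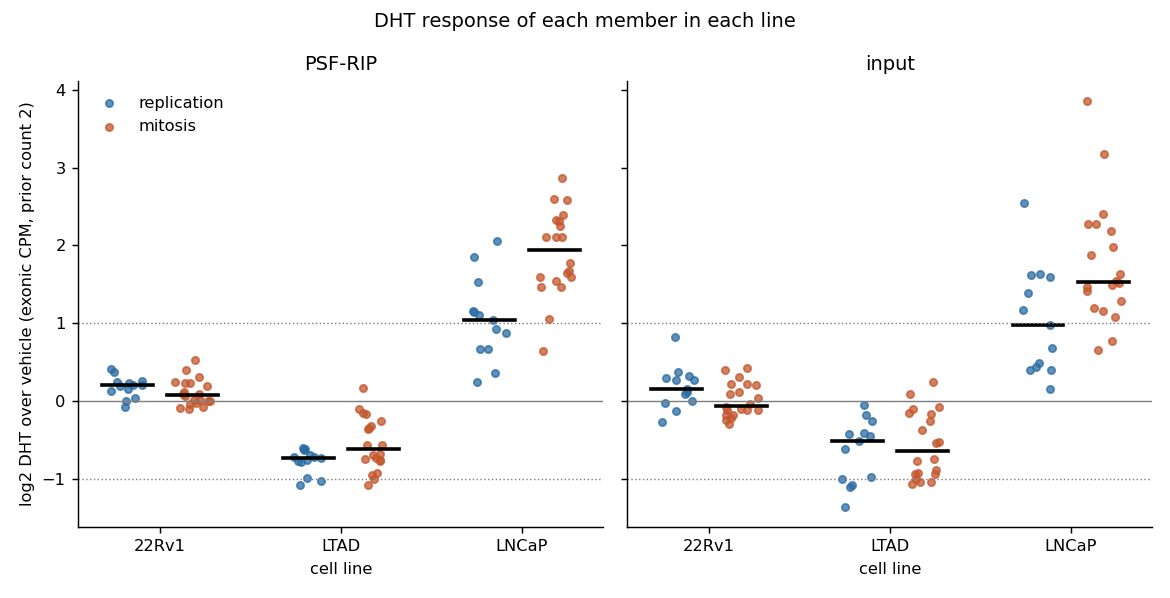
Log2 ratio of DHT to vehicle for every member (points; blue replication, orange mitosis) in PSF-RIP and input of each line, with the group median as a black bar and 2-fold as dotted lines. The LNCaP points lie above 0 (PSF-RIP medians 1.05 and 1.94), most LTAD points below 0 (medians -0.74 and -0.62) and the 22Rv1 points near 0 (0.20 and 0.078); each point is 1 library against 1, and the highest LNCaP input point is TTK, with 0 vehicle reads.

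In LTAD, DHT went with lower levels of both groups. In PSF-RIP all 13 replication genes had fewer CPM with DHT than with vehicle, with a median log2 ratio of -0.74, and 19 of 20 mitosis genes did, with a median of -0.62; of all genes, 50.6% did. The interval lay below 1 for 13 of 13 replication and 15 of 20 mitosis genes, against 20.6% of all genes. At least 2-fold lower were 4 of 33 in PSF-RIP (2.08% of all genes) and 8 of 33 in input (6.91%). TYMS in LTAD PSF-RIP was at 45.0 CPM with DHT and 95.5 CPM with vehicle, a ratio of 0.471 (95% interval 0.414 to 0.536). CENPE had 0.466 (95% interval 0.384 to 0.564) and CCNE2 0.482 (95% interval 0.378 to 0.611).

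PCNA in LTAD PSF-RIP was at 110.3 CPM with DHT and 187 CPM with vehicle, a ratio of 0.591 (95% interval 0.543 to 0.644), and in LTAD input at 76.3 CPM with DHT and 151 CPM with vehicle, a ratio of 0.507 (95% interval 0.385 to 0.666). E2F1 in LTAD input was at 24.4 CPM with DHT and 63.3 CPM with vehicle, a ratio of 0.385 (95% interval 0.239 to 0.611). CDC20, PLK1, CCNB1 and AURKA had ratios of 0.893, 0.934, 0.890 and 1.13 in PSF-RIP, each with an interval that held 1. In all, 30 of 33 members were higher with DHT in both LNCaP fractions and lower with DHT in both LTAD fractions, a pattern of 7.32% of all genes, and the exceptions AURKA, BUB1 and TOP2A were each higher with DHT in 1 LTAD fraction. The difference of the DHT response between lines was not tested, since each line and fraction has 1 library per treatment.

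In 22Rv1 no member passed 2-fold in either direction. Of all genes, 1.16% were past 2-fold higher and 2.4% lower in PSF-RIP, and 3.46% higher and 5.58% lower in input. Ratios in PSF-RIP ran from 0.934 for FOXM1 to 1.44 (95% interval 1.27 to 1.63) for CDC20. The interval lay above 1 for 6 of 13 replication and 6 of 20 mitosis genes there, RRM2 with 1.33 (95% interval 1.20 to 1.47) and UBE2C with 1.32 (95% interval 1.14 to 1.54) among them, against 14.7% of all genes. It lay below 1 for FOXM1 alone among members, against 20.1% of all genes.

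Averaged over the 3 lines, no member was called for DHT against vehicle in PSF-RIP or input by edgeR's quasi-likelihood test, 0 had an unadjusted p under 0.05, and DESeq2 called 0. Of all genes, 1.5% were higher and 1.39% lower with DHT in PSF-RIP, and 0.436% higher and 0.189% lower in input. The members' log2 differences in this test ran from -0.23 to 0.57 in PSF-RIP and from -0.39 to 0.54 in input. The test takes the lines as replicates, and their responses enter its error.

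In LNCaP the share of mitosis reads against replication reads was higher with DHT than with vehicle. Mitosis reads per replication read in PSF-RIP were 0.932 (95% interval 0.884 to 0.983) with DHT and 0.424 (0.389 to 0.461) with vehicle in LNCaP. In LNCaP input they were 1.03 (0.922 to 1.16) with DHT and 0.592 (0.492 to 0.710) with vehicle. The LNCaP intervals of the treatments did not overlap in either fraction. In LTAD they were 0.991 (0.958 to 1.03) with DHT and 0.872 (0.846 to 0.899) with vehicle in PSF-RIP, and 1.03 and 0.958 in input, where the intervals overlapped. In 22Rv1 the order was the other way, with 1.93 (1.88 to 1.98) with DHT and 2.13 (2.09 to 2.18) with vehicle in PSF-RIP. In 22Rv1 input it was 1.65 (1.561 to 1.744) with DHT and 1.83 (1.734 to 1.929) with vehicle, and these intervals overlapped. Genes with many reads weigh most in these sums: MKI67, CENPF and FOXM1 had 5013, 4785 and 3461 of the 27010 mitosis reads in 22Rv1 vehicle PSF-RIP.

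**Figure D3:**
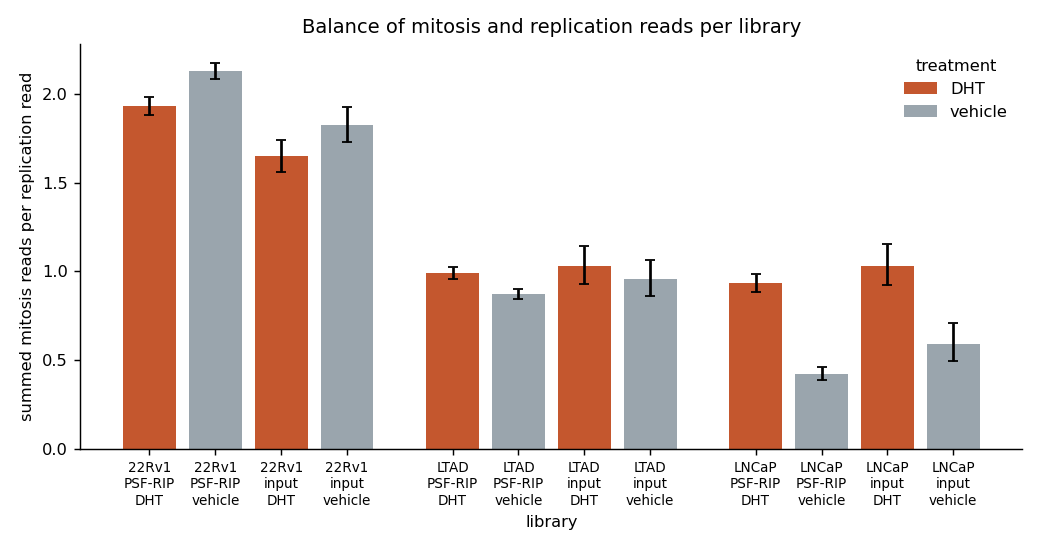
Summed exonic reads of the 20 mitosis genes divided by those of the 13 replication genes in each library (bars; whiskers are 95% counting intervals), DHT in orange and vehicle in grey. The 22Rv1 bars lie between 1.65 and 2.13, and the LNCaP vehicle bars are the lowest at 0.424 and 0.592.

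Other genes of the same processes, which are not members, were counted in the same tests. Of 57 other mitosis genes tested, 55 were higher in 22Rv1 than in LNCaP in PSF-RIP and 51 in input, and of 40 other replication genes 33 and 26. The shares of all genes were 33.3% and 26.6%. In LTAD against LNCaP, 24 of the other mitosis genes and 10 of the other replication genes were higher in PSF-RIP, and 2 of each in input. The shares of all genes there were 7.92% and 2.93%. KIF18A, a mitotic motor, was higher in 22Rv1 than in LNCaP by 4.19 (adjusted p = 1.11e-06) in PSF-RIP, and POLE, the leading-strand polymerase, by 2.24 (adjusted p = 1.38e-07). GMNN, the inhibitor of CDT1, was higher in LTAD than in LNCaP by 1.45 (adjusted p = 0.00062) in PSF-RIP. Among 33 cell cycle regulators, 20 were higher and 2 lower in 22Rv1 than in LNCaP in PSF-RIP, against 33.3% and 27.8% of all genes. CCND1, a D-type cyclin gene, was higher by 2.59 (adjusted p = 2.84e-08) and E2F3 was at -0.73 (adjusted p = 0.000628). In LTAD against LNCaP, 8 of these 33 regulators were higher and 3 lower in PSF-RIP, against 7.92% and 12% of all genes. The count of lower regulators was thus not above the share of all genes. The kinase genes CDK6 and CDK4 were higher by 1.92 (adjusted p = 0.00499) and 0.81 (adjusted p = 0.0111), and CDKN2C, the inhibitor p18, by 1.43 (adjusted p = 0.00876). The lower ones were CDKN1A, the inhibitor p21, at -1.61 (adjusted p = 0.00275), CCND1 at -0.61 (adjusted p = 0.00732) and RBL2, a pocket protein, at -0.44 (adjusted p = 0.0366). For DHT averaged over lines, 1 of the 57 other mitosis genes (CENPN, higher) was called in PSF-RIP, near the 1.5% of all genes called higher.

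Against input, PSF-RIP held more exonic reads of many members, scaled to library size. In the fit over all 12 libraries 15 of 33 members were higher in PSF-RIP and 0 lower, 5 of 13 replication and 10 of 20 mitosis genes, where 30.5% of all genes were higher and 27.5% lower. For members called lower, 0 was the count by edgeR's quasi-likelihood test and by DESeq2. With input and PSF-RIP of a line and treatment kept as a pair (replicate block) 18 were higher and 6 lower, the lower ones being BIRC5, RRM2, CDT1, CDK1, FOXM1 and UBE2C, and over all genes 4515 were higher and 3976 lower. The count of lower members was 1 without the 22Rv1 DHT PSF-RIP, LNCaP vehicle input or LTAD DHT input library, 3 without LNCaP DHT PSF-RIP and 4 without LTAD vehicle PSF-RIP. The median log2 enrichment was 0.38 for replication and 0.55 for mitosis genes, against 0.053 for all genes.

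MCM7 had the smallest adjusted p. Its PSF-RIP and input CPM are given above, and its log2 PSF-RIP over input was 0.99 (DHT) and 1.05 (vehicle) in 22Rv1, 0.88 (DHT) and 1.22 (vehicle) in LTAD, and 1.14 (DHT) and 1.18 (vehicle) in LNCaP. All 6 pairs lay between 0.88 and 1.22, and the fit gave 1.08 (SE 0.12, adjusted p = 1.51e-07). MCM3 followed with 1.02 (SE 0.15, adjusted p = 9.2e-06) and pairs of 1.19 (DHT) and 1.12 (vehicle) in 22Rv1, 0.94 (DHT) and 1.12 (vehicle) in LTAD, and 0.79 (DHT) and 0.80 (vehicle) in LNCaP. Of the other helicase subunits, MCM2, MCM5 and MCM6 were called at 0.62, 0.62 and 0.57. MCM4 and PCNA were higher in all 6 pairs and were not called in the fit over all 12 libraries. With edgeR's quasi-likelihood test under the replicate block they were called (adjusted p = 0.000153 and 0.000226).

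Of the mitosis genes, CCNB1 was higher in PSF-RIP in all 6 pairs, 1.29 (DHT) and 1.08 (vehicle) in 22Rv1, 1.03 (DHT) and 1.03 (vehicle) in LTAD, and 0.56 (DHT) and 0.29 (vehicle) in LNCaP, with a fitted value of 0.98 (SE 0.18, adjusted p = 0.000111). CENPE had 1.42 (DHT) and 1.18 (vehicle) in 22Rv1, 1.30 (DHT) and 2.31 (vehicle) in LTAD, and 0.57 (DHT) and -0.027 (vehicle) in LNCaP and a fitted value of 1.24 (SE 0.27, adjusted p = 0.000499). In LNCaP vehicle its value was near 0, on 9 input reads. TOP2A had 1.06 (DHT) and 1.04 (vehicle) in 22Rv1, 0.87 (DHT) and 1.36 (vehicle) in LTAD, and 0.87 (DHT) and -0.23 (vehicle) in LNCaP and a fitted value of 1.00 (SE 0.24, adjusted p = 0.00132). CENPF had 1.28 (DHT) and 1.11 (vehicle) in 22Rv1, 0.74 (DHT) and 1.21 (vehicle) in LTAD, and 0.95 (DHT) and 0.92 (vehicle) in LNCaP and a fitted value of 1.09 (SE 0.26, adjusted p = 0.00145). The remaining called mitosis genes were BUB1B, CDC20, TPX2, PLK1, AURKB and MKI67, at 0.71 to 0.90.

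At the other end, BIRC5, CDT1 and CDK1 were lower in PSF-RIP in all 6 pairs, and none was called in the fit over all 12 libraries or by DESeq2. With edgeR's quasi-likelihood test under the replicate block, which keeps the pairs, each was called lower (adjusted p = 4.97e-06, 0.00489 and 0.00723). BIRC5 had 110.4 (DHT) and 117 (vehicle) CPM in 22Rv1 PSF-RIP against 150 (DHT) and 169.9 (vehicle) CPM in 22Rv1 input. In LTAD it had 17.8 (DHT) and 30.8 (vehicle) CPM in PSF-RIP against 26.7 (DHT) and 51.3 (vehicle) CPM in input. In all, 13 of 33 members were higher in PSF-RIP in all 6 pairs and 3 were lower in all 6, against 26.7% and 22.8% of all genes. Across the 33 members, enrichment went with exonic length with Spearman's rho of 0.35, as a description over genes that share the libraries. The 15 called members had a median exonic length of 3506 bases and the other 18 of 2713 bases. With the trend of counts on length removed, 16 were called higher and 0 lower.

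**Figure D4:**
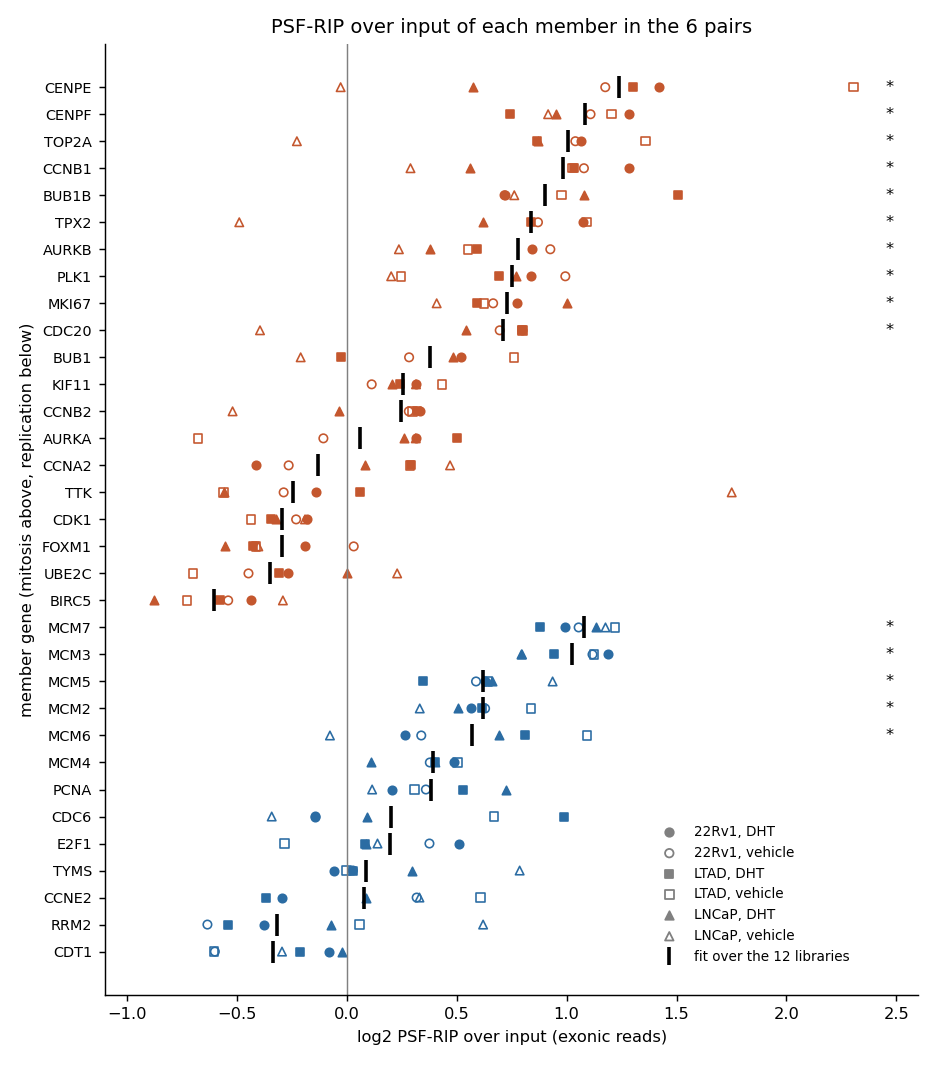
Log2 PSF-RIP over input of every member in the 6 line-treatment pairs (symbols; filled DHT, open vehicle) with the fitted value (black bar); mitosis genes in orange above, replication genes in blue below, and an asterisk for members called higher. CENPE, CENPF, MCM7 and MCM3 have the highest fitted values, and BIRC5, CDT1 and CDK1 lie below 0 in all 6 pairs; the TTK value of LNCaP vehicle rests on 0 input reads.

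Replication and mitosis genes did not keep one order in enrichment. The mitosis median minus the replication median was 0.35 (DHT) and 0.11 (vehicle) in 22Rv1, 0.14 (DHT) and -0.12 (vehicle) in LTAD, and 0.14 (DHT) and -0.12 (vehicle) in LNCaP. The medians of all genes in these pairs were 0.011 to 0.10. In the tests of whether enrichment differed between 22Rv1 and LNCaP, between LTAD and LNCaP, or between DHT and vehicle, 0 members were called by edgeR's quasi-likelihood test, 0 at an unadjusted p under 0.05 and 0 by DESeq2. Of all genes, 0.0% were called in either direction in each of these tests, and DESeq2 called 1 higher and 4 lower for 22Rv1 against LNCaP and 0 in the others. The replicate block called 282 higher and 131 lower, 135 and 140, and 3 and 4 genes in these tests, and 0 members in each. With 4 residual degrees of freedom, a miss in these tests does not show equal enrichment.

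Intronic reads made up a smaller share of the members' reads in PSF-RIP than in input of 22Rv1 and LTAD. Summed over members, the intronic share of gene reads was lower in PSF-RIP for 5 of the 6 pairs, while over all genes it was higher in PSF-RIP for all 6. In 22Rv1 the members' share was 9.42% in PSF-RIP against 17.1% in input with DHT, and 10.5% against 19.3% with vehicle. In LTAD it was 7.43% against 10.0% with DHT and 8.34% against 10.9% with vehicle. In LNCaP it was 11.2% against 12.7% with DHT and, in the other direction, 15.9% against 13.5% with vehicle, PSF-RIP first each time. For the members summed, the 95% intervals (Wilson) of PSF-RIP and input did not overlap in the 22Rv1 and LTAD pairs. In LNCaP they overlapped, 10.5% to 12.1% against 11.1% to 14.6% with DHT and 14.6% to 17.2% against 11.01% to 16.5% with vehicle. In the all-gene sums the shares were 12.48% to 22.6% in PSF-RIP and 12.3% to 19.5% in input.

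**Figure D5:**
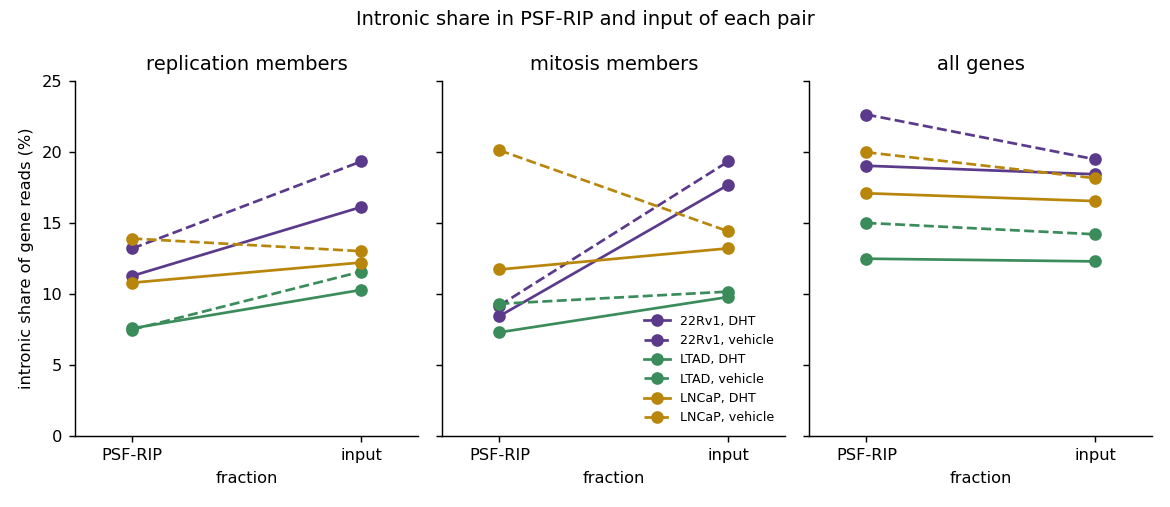
Intronic reads as a share of intronic plus exonic gene reads in PSF-RIP (left) and input (right) of each pair, for replication members, mitosis members and all genes; colours are lines, solid DHT and dashed vehicle. For both member groups 5 of 6 lines run lower in PSF-RIP, LNCaP vehicle being the exception, and for all genes 6 of 6 run higher in PSF-RIP.

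In the fit of intronic reads 0 members were higher and 3 lower in PSF-RIP than in input, against 10.9% and 8.77% of all genes. In the replicate block 7 were lower, MCM5, CENPF, AURKA, MKI67, TPX2, BIRC5 and CCNB2, against 1086 higher and 1135 lower over all genes. MCM5 introns had 174 (DHT) and 146 (vehicle) CPM in 22Rv1, 58.0 (DHT) and 78.4 (vehicle) CPM in LTAD, and 40.8 (DHT) and 26.2 (vehicle) CPM in LNCaP in PSF-RIP, on intronic library sizes. In input MCM5 introns had 351 (DHT) and 365 (vehicle) CPM in 22Rv1, 64.0 (DHT) and 115 (vehicle) CPM in LTAD, and 79.0 (DHT) and 26.6 (vehicle) CPM in LNCaP. They were lower in PSF-RIP in all 6 pairs, by little in LNCaP vehicle, with a fitted value of -0.81 (SE 0.21, adjusted p = 0.0076). AURKA had -0.97 (SE 0.26, adjusted p = 0.0108) and CENPF -0.94 (SE 0.29, adjusted p = 0.0246), whose exonic value was 1.09 in the other direction.

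AURKA introns had 57.3 (DHT) and 45.1 (vehicle) CPM in 22Rv1, 24.2 (DHT) and 33.8 (vehicle) CPM in LTAD, and 20.4 (DHT) and 6.99 (vehicle) CPM in LNCaP in PSF-RIP. In input AURKA introns had 124 (DHT) and 143 (vehicle) CPM in 22Rv1, 32.0 (DHT) and 40.9 (vehicle) CPM in LTAD, and 26.3 (DHT) and 11.4 (vehicle) CPM in LNCaP, so that the value was lower in PSF-RIP in every pair. CENPF introns had 126 (DHT) and 121 (vehicle) CPM in 22Rv1, 13.6 (DHT) and 20.9 (vehicle) CPM in LTAD, and 17.9 (DHT) and 2.62 (vehicle) CPM in LNCaP in PSF-RIP. In input CENPF introns had 237 (DHT) and 322 (vehicle) CPM in 22Rv1, 19.20 (DHT) and 32.7 (vehicle) CPM in LTAD, and 21.9 (DHT) and 0 (vehicle) CPM in LNCaP, and LNCaP vehicle input had 0 reads. The count of lower members was 1 without the 22Rv1 vehicle input, 22Rv1 vehicle PSF-RIP or 22Rv1 DHT PSF-RIP library and 1 by DESeq2. It was 5 without either LNCaP vehicle library, 8 without LTAD vehicle PSF-RIP and 9 without LNCaP DHT PSF-RIP. MCM5 was called without each library in turn, and CENPF lost its call without 5 of them and AURKA without 3.

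Intronic reads, which come largely from unspliced RNA, separated the lines like exonic ones. In PSF-RIP 31 of 33 members were higher in 22Rv1 than in LNCaP in introns (29.2% of all genes higher and 25.2% lower), with PCNA and CDK1 not called. TOP2A introns had 212 (DHT) and 129 (vehicle) CPM in 22Rv1, 55.1 (DHT) and 57.6 (vehicle) CPM in LTAD, and 24.2 (DHT) and 6.99 (vehicle) CPM in LNCaP in PSF-RIP. They were higher in 22Rv1 than in LNCaP by 3.52 (SE 0.32, adjusted p = 1.89e-08), and all 3 lines were apart. CENPE was higher by 3.62 (SE 0.40, adjusted p = 2.56e-07), BUB1B by 2.53 (SE 0.29, adjusted p = 3.4e-07), CENPF by 3.76 (SE 0.45, adjusted p = 6.31e-07), FOXM1 by 2.91 (SE 0.36, adjusted p = 1.17e-06) and MCM5 by 2.28 (SE 0.30, adjusted p = 2.74e-06).

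In LTAD against LNCaP 9 of 33 were higher in introns (7.03% of all genes higher and 4.16% lower), TOP2A by 1.98 (SE 0.36, adjusted p = 0.0011), TPX2 by 1.64 (SE 0.43, adjusted p = 0.0162) and MKI67 by 2.54 (SE 0.71, adjusted p = 0.0252). BUB1B was higher by 1.13 (SE 0.32, adjusted p = 0.0263), FOXM1 by 1.43 (SE 0.41, adjusted p = 0.0282) and E2F1 by 1.21 (SE 0.36, adjusted p = 0.0326). MKI67 introns had 49.1 (DHT) and 51.5 (vehicle) CPM in 22Rv1, 18.4 (DHT) and 32.8 (vehicle) CPM in LTAD, and 10.2 (DHT) and 0 (vehicle) CPM in LNCaP in PSF-RIP, with 0 reads in LNCaP vehicle. The count was 0 without the LNCaP vehicle library, 1 without the LTAD vehicle library, 16 without either DHT library and 1 by DESeq2.

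With DHT in LNCaP PSF-RIP, the median log2 ratio of intronic reads was 1.41 for mitosis and 0.59 for replication genes, and the interval lay above 1 for 14 of 20 and 5 of 13, against 12.9% of all genes. In LTAD PSF-RIP the medians were -0.52 for mitosis and -0.42 for replication genes, and the interval lay below 1 for 3 of 20 and 5 of 13, against 8.7% of all genes. These are 1 library against 1.

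PSF-CLIP in LNCaP placed peaks in some of these genes. Of the 33 genes, 7 held a peak in DHT list 1, 12 in vehicle list 1, 2 in DHT list 2 and 0 in vehicle list 2. Of all genes tested, 41.5%, 43.1%, 26.4% and 11.2% held one in the same 4 lists. The deposited name of list 2 of each treatment carries a mark on the antibody that list 1 lacks, whose meaning is not given in the sources used here, so the lists 1 and 2 may differ in antibody and are not compared with each other. CENPF held 6 peaks in DHT list 1, all at least partly exonic, and 4 in vehicle list 1, with the highest score among members' peaks there (249, the authors' score, which starts at 50 in each list). Of the 12 member peaks of DHT list 1, 8 touched an exon, and of the 24 of vehicle list 1, 14 did. Peaks depend on a gene's level and span, whose part in these counts was not tested. The median span was 15270 bases for replication genes, 21460 for mitosis genes and 25910 for all genes tested.

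MCM3 had a peak at 1 place in 3 of the 4 lists, which is why its sequence is shown. The peak of DHT list 2 is on GRCh37 at chr6:52141474-52141686, 213 bases within an MCM3 intron between the exons that end at 52141274 and start at 52141865, and it lies inside a peak of DHT list 1 (52141399 to 52141733, score 204) and a peak of vehicle list 1 (52141288 to 52141878, score 81.7), which reaches into the exon at its end with 2.37% of its length. Read on the minus strand, the strand of MCM3, it is 38.5% G and C.
MCM3 intronic peak: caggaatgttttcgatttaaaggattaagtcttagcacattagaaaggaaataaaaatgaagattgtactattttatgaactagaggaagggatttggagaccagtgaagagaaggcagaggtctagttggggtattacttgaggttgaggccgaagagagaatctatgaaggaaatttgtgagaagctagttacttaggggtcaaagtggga
The peak lists hold no strand, so the strand shown is that of the gene. MCM3 was also next to MCM7 by adjusted p in PSF-RIP over input of exonic reads, and its intronic reads were not called in that comparison (-0.056, adjusted p = 0.888).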

How the data were processed

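The 12 RIP-seq files give the authors' raw counts, in whole numbers and per the file headers from uniquely mapped reads, for transcripts of RefSeq on hg19 and for introns, antisense and intergenic intervals. Tools and builds named in the submitters' processing notes are hg19, TopHat2 2.1.0, Bowtie2 2.2.6, Bowtie and GRCh37, and the labels name a strand-specific kit. The 4 CLIP lists hold the authors' own peaks and deposited score (no strand, smallest score 50). The peaks were therefore matched to genes by position alone, by at least 1 base. The second LNCaP set of 4 samples was not analysed here, and 12 columns of counts and scaled values were matched to no sample.

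The test of sense exonic counts was the quasi-likelihood test of edgeR 4.0.16 under R 4.3.3 (helper package limma 3.58.1), with TMM scaling, its default filter, and p-values were adjusted by Benjamini-Hochberg over all genes at 0.05. PSF-RIP over input had additive terms for line and treatment, and the other tests had line by fraction and treatment by fraction (4 residual degrees of freedom). Intronic counts were summed per transcript and scaled by their own totals. Single ratios use exact conditional 95% intervals and intronic shares use Wilson intervals, which, like the floor of 3 reads, cover counting error only. Log2 ratios of single pairs use a prior count of 2. DESeq2 1.42.0, other filters and scalings, and each library left out were alternatives. Input and PSF-RIP are paired by the line and treatment in their labels, and the deviations of a pair from the means of their fraction correlated at 0.791 to 0.939 over 13776 genes. These deviations still hold the differences between lines and treatments, so they do not show that a pair came from 1 culture. The tests of line and of DHT took input and PSF-RIP of a pair as independent. Their calls in the 2 fractions are therefore not separate evidence, and the 4 residual degrees of freedom may overstate the independent spread. The steps were tested on simulated data.

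The members and lists were chosen with earlier results of these data known. Per comparison, up to 6 called members per direction with the smallest adjusted p are given in full, and up to 3 genes per direction of each further list were eligible to be named.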

Additional observations from a re-analysis of the deposited data

Results flagged for a closer look

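In log2 PSF-RIP over input of exonic reads, the LNCaP vehicle pair stood far below the other 5 pairs for 3 of the 15 members examined (those called in that comparison): TOP2A at -0.23, CDC20 at -0.39 and TPX2 at -0.49. The LNCaP vehicle input held 8, 6 and 17 reads of these genes. By chance about 1 in 20 groups stands out in this way.

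For 30 of the 33 members, both DHT libraries of LNCaP were above their vehicle libraries and both DHT libraries of LTAD were below theirs, as for 7.32% of all genes. This difference between the lines was not tested.

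Reads antisense to TYMS, which enter no comparison, numbered 3 to 489 per library, with 489 in 22Rv1 vehicle PSF-RIP. Over all libraries TYMS had 1285 antisense and 3979 sense exonic reads.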

How the results depend on the processing

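Of the counts of members called, 104 were within 1.5 times the reported count under an alternative scaling, tool, filter or model. The other 16 were not. The 104 include counts of 0 that stayed at 0, and a turn of direction was not scored in this tally. With DESeq2 the counts that moved were LTAD over LNCaP in input (2 higher) and PSF-RIP (7 higher), 22Rv1 over LTAD in PSF-RIP (16 higher, 0 lower), intronic PSF-RIP over input (1 lower) and intronic LTAD over LNCaP (1 higher). With no expression filter they were LTAD over LNCaP in input (17 higher) and PSF-RIP (31 higher), 22Rv1 over LTAD in input (1 lower) and PSF-RIP (2 lower), PSF-RIP over input in exons (1 lower) and introns (6 lower), and intronic LTAD over LNCaP (18 higher). Fitting input alone gave 6 higher for LTAD over LNCaP. With the replicate block, 6 members were lower in exons and 7 in introns, and the block changed no other count of members by over 1.5 times.

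Leaving out 1 library at a time gave 12 to 18 higher and 0 to 4 lower for PSF-RIP over input in exons, and 0 to 1 higher and 1 to 9 lower in introns. For 22Rv1 over LNCaP it gave 18 to 29 higher in input, 26 to 32 in PSF-RIP and 21 to 32 in introns. For LTAD over LNCaP it gave 0 in input, 1 to 29 in PSF-RIP and 0 to 16 in introns. For 22Rv1 over LTAD it gave 2 to 18 higher and 0 to 1 lower in input, and 18 to 29 higher and 0 to 3 lower in PSF-RIP. The cause was not tested.

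Depth limits the input of LNCaP and LTAD most, where several mitosis genes had fewer than 10 reads. Each line and treatment has 1 library per fraction, and the lone library of a group after another is left out is assumed to vary like the others.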
